A study of Mus musculus with 20 samples.

Results

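The histone genes of mouse ovarian antral follicles are described here in poly(A)-selected RNA libraries. Members were the genes of the count table whose symbol follows the naming of the H1, H2A, H2B, H3 or H4 families. Their product text also had to hold the word histone, and their counts had to sum to at least 20 over the 20 mice. Among genes so named they were chosen by their total level, and the rule used no comparison between groups. The rule itself was set with earlier results of these data known. Of 39253 genes in the table, 97 met the conditions on name and product, and 73 of these also met the sum. Just inside the limit were H2al1k with a sum of 25.6 counts and H2bc7 with 35.0, and just outside were H1f6 with 14.0 and H1f9 with 13. By their symbols 60 members were taken as genes of the histone gene clusters (5 of H1, 16 of H2A, 17 of H2B, 11 of H3 and 11 of H4), 9 as replacement genes outside them, and 4 as germline forms. H2aw and H2bu2 were counted with the clusters although their product names do not say so, and H2ac1, whose product name does, was counted with the germline forms. The cluster members lie on chromosomes 13 (49 genes), 3 (9 genes) and 11 (2 genes).

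The follicles came from adult female CD-1 mice that drank water with iodoacetic acid (IAA), a by-product of water disinfection, at 10 mg/L (5 mice) or 500 mg/L (5 mice), or water alone (10 control mice). Exposure ran for 35 days from day 40 of age, and 30 to 40 follicles of 220 to 400 µm per mouse, collected in diestrus at day 75, made 1 library. Experiment 2 held the mice at 10 mg/L with control replicates 1 to 5, and experiment 1, run a month apart from it, held the mice at 500 mg/L with control replicates 6 to 10. No gene was altered in any group, and the mice are of an outbred stock. Each dose was therefore compared with all controls, as the submitters did, and with the 5 controls of its own experiment.

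Histones package DNA into nucleosomes, and the linker histone H1 binds the DNA between them. Most histone protein is made in S phase from the clustered, replication-dependent genes, whose mRNAs end in a conserved stem-loop in place of a poly(A) tail and are bound there by the stem-loop binding protein. Replacement histones are made throughout the cell cycle from ordinary polyadenylated mRNAs, and some cluster genes can also give polyadenylated transcripts. A library made by capture of poly(A) tails is therefore built to retain replacement mRNAs and to lose most replication-dependent ones. Granulosa cells of antral follicles divide, while the oocyte they enclose is arrested and carries its own linker histone, H1f8.

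The stem-loop was looked for in the annotated transcripts, because it is the feature that sets the cluster mRNAs apart from the others. The pattern searched was GG, any 2 bases, CT, any 4 bases, AG, any 2 bases and CC, on the transcript strand only, between the stop codon and the transcript end, in GENCODE M21 (build GRCm38). Sites are given below for abundant cluster genes and for genes with the smallest p in a comparison, and for H2ax, the replacement gene that has one. They run 5′ to 3′ with the matched stem-loop in capitals and 5 flanking bases on each side.
H1f2: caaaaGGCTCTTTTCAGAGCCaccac
H1f4: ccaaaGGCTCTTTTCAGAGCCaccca
H2ac19: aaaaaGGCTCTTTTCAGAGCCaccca
H2bc12: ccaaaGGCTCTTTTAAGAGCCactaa
H3c14: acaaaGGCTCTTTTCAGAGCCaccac
H4c8: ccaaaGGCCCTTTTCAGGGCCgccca
H4c9: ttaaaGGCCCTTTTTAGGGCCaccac
H2ax: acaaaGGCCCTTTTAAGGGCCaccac

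Of the 60 cluster genes 41 held the pattern, against 3.51% of 21830 coding genes. It began 25 bases after the stop codon in H1f2, 33 bases after it in H2bc12 and 47 bases after it in H2ax. One form, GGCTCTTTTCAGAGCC, stood in 24 of the 41 cluster genes and in no H4 gene. In 21 cluster genes the annotated transcript ended within 100 bases after the stem-loop, as H2ac19 and H2bc12 did. In 20 it ran on for more than 100 bases, as in H1f2 with 840 further bases and H3c14 with 1167. Of the other 19 cluster genes, 13 have a model that ends at the stop codon or under 16 bases after it, too short for the pattern, and 6 have longer sequence after it without these letters, H2bc4 and H2bc21 among them. The polyadenylation signal AATAAA stood in the last 50 bases of 8 of the 20 long forms, of 0 of the 21 short forms and of 66.4% of coding genes. All 7 replacement genes with searchable sequence and no stem-loop had it. H3f3c, the other replacement gene, matched no coding transcript.

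Replacement histones dominated these libraries. Their 9 genes summed to 1950 ± 228 CPM (read counts relative to the library size, with sizes adjusted by trimmed means) at 10 mg/L, 2110 ± 136 CPM at 500 mg/L (SD, n = 5 each) and 2050 ± 131 CPM in the controls (SD, n = 10). The 60 cluster genes together reached 77.1 ± 25.6 CPM at 10 mg/L, 51.9 ± 5.72 CPM at 500 mg/L and 59.0 ± 15.3 CPM in the controls, with the same numbers of mice. Scaled by the length of the longest annotated transcript, the mean levels over all mice were 341 CPM per kb for H2az1, which encodes the H2A.Z form placed at promoters, and 261 and 193 CPM per kb for H3f3b and H3f3a, which encode the H3 form deposited outside S phase. The linker gene H1f0 had 84.7 CPM per kb and H2ax, whose protein is phosphorylated at DNA breaks, 65.0 CPM per kb. The highest cluster genes had 10.0 CPM per kb (H2bc4), 8.81 (H2ac19), 7.04 (H2bc12), 6.01 (H1f2) and 3.82 (H2bc21), all below the lowest of the 8 replacement genes with a length, H2aj at 21.7 CPM per kb. These 5 cluster genes made up 63.1% of the cluster sum. The annotation that the submitters indexed may have other lengths.

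**Figure D1:**
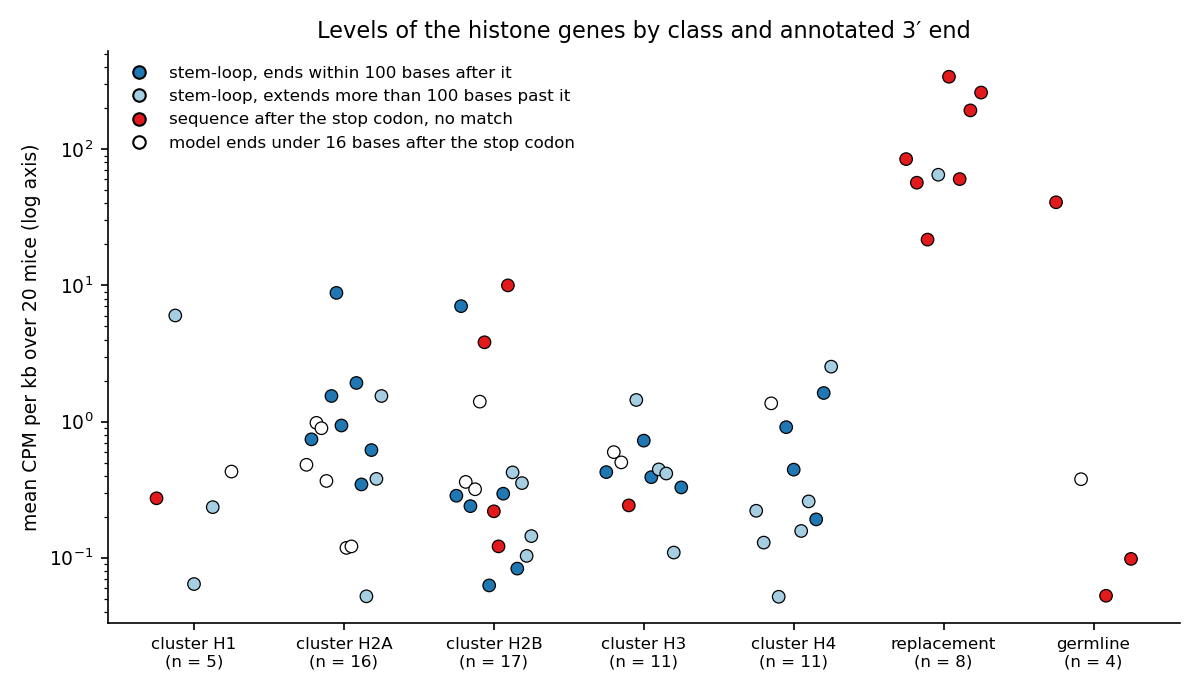
Mean level of each histone gene over the 20 mice, in CPM per kb of its longest GENCODE M21 transcript on a log axis, by class, with colours for the annotated end of the transcript. The 8 replacement genes sit between 21.7 and 341 CPM per kb, and no cluster gene lies above 10.0 CPM per kb.

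The libraries held 39.9 M to 67.5 M counts each. Follicle cell types were present in every mouse, with sums of 6350 to 13600 CPM for 8 granulosa markers and 310 to 685 CPM for 10 oocyte markers. In such bulk libraries fewer cells of a type and less RNA per cell cannot be told apart. Of 24 RNAs known to lack a poly(A) tail, 20 were in the table and 5 of those had no counts. In 19 mice this list summed to between 10.6 and 33.3 CPM, and in replicate 2 at 10 mg/L it summed to 378 CPM, so this library stood apart in the RNAs that poly(A) capture is built to lose. Differences at 10 mg/L that rest on it are given with and without it.

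By mouse, the cluster sums were 40.9, 112, 68.5, 83.2 and 81.0 CPM at 10 mg/L (replicates 1 to 5), against 46.5, 53.5, 69.2, 46.7 and 51.1 CPM in the controls of experiment 2. Replicates 2, 4 and 5 at 10 mg/L lay above all 5 of these controls and replicate 1 lay below them. The cluster sums with 500 mg/L were 48.6, 48.4, 50.3, 50.3 and 62.0 CPM, against 53.6, 95.9, 55.1, 69.5 and 49.0 CPM in the controls of experiment 1 (replicates 6 to 10), and these groups overlapped. Replacement sums were between 1970 and 2270 CPM at 500 mg/L, against 1900 to 2210 CPM in the controls of experiment 1. At 10 mg/L they were 2060, 1550, 2120, 2030 and 1980 CPM, against 1900 to 2230 CPM in the controls of experiment 2, and replicate 2 was the lowest of all 20 mice. The cluster sum as a percentage of the replacement sum was 4.12 ± 1.93% at 10 mg/L and 2.66 ± 0.531% in the controls of experiment 2, and 2.45 ± 0.172% at 500 mg/L and 3.15 ± 1.10% in the controls of experiment 1 (SD, n = 5 each). Without replicate 2 the percentage at 10 mg/L was 3.35 ± 0.993% (SD, n = 4), and the mean cluster sum there was 68.4 ± 19.4 CPM. Without control replicate 7 the percentage in the controls of experiment 1 was 2.67 ± 0.321% and their mean cluster sum 56.8 ± 8.84 CPM (SD, n = 4). The cluster sum at 500 mg/L minus that of these controls was −12.7 CPM with all mice and −4.87 CPM without control replicate 7, and the difference in the percentage was −0.692 and −0.218 points.

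**Figure D2:**
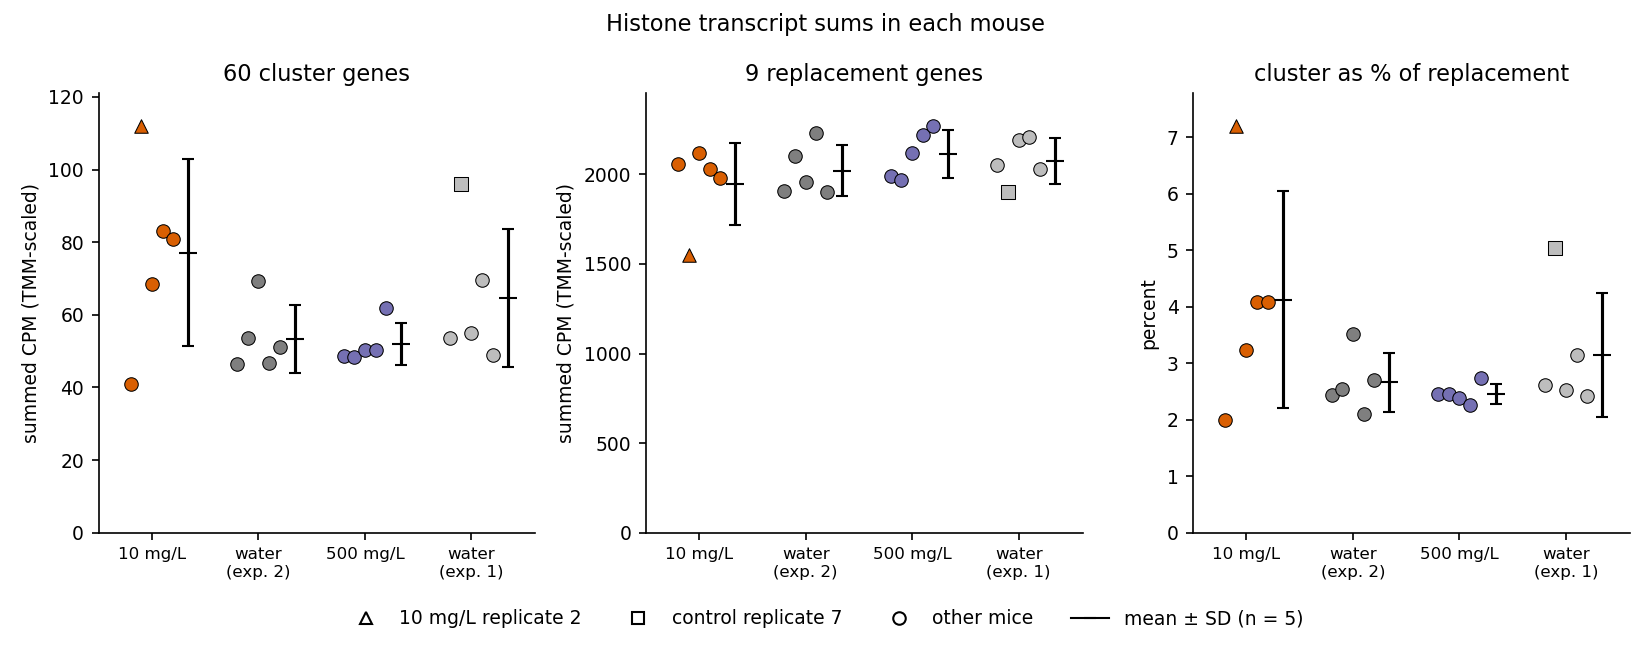
Summed CPM of the 60 cluster genes (left) and of the 9 replacement genes (middle) and the first as a percentage of the second (right), 1 symbol per mouse, by dose and experiment, with mean and SD of 5 mice. Replicate 2 at 10 mg/L (triangle) has the highest cluster sum, 112 CPM, and the lowest replacement sum, 1550 CPM, and control replicate 7 (square) has the second highest cluster sum, 95.9 CPM.

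Replicate 2 at 10 mg/L held the highest value of all 20 mice in 42 of 60 cluster genes, or 70.0%, where it was highest in 8.1% of all genes with at least 20 counts. It was highest in 10 of 11 H3 genes, 10 of 11 H4 genes, 4 of 5 H1 genes, 11 of 17 H2B genes and 7 of 16 H2A genes. Its log2 level lay above the median of the other 19 mice by a median of 1.02 over the cluster genes, against 0.00456 over all genes (log2 of CPM plus 0.5). The cluster H3 genes summed to 18.6 CPM in this mouse and to at most 6.99 CPM in the other 19, and the cluster H4 genes to 15.0 CPM and at most 7.21 CPM. None of the 5 highest cluster genes was highest in this mouse. H2bc4 stood at 9.0 CPM there and H2ac19 at 4.03 CPM, with log2 differences of −0.12 and −0.05 from the median of the other 19 mice. H1f2 stood at 12 CPM, H2bc21 at 13.1 CPM and H2bc12 at 4.25 CPM, with differences of 0.65, 0.35 and 0.50. Without the 5 highest genes the cluster sum was 69.2 CPM in replicate 2 and 13.8 to 30.5 CPM in the other 19 mice. Control replicate 7 came next, highest in 5 of 60 cluster genes and in 8.78% of all genes.

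The excess was seen with each annotated form of the transcript end. Among cluster genes whose transcript ended soon after the stem-loop, replicate 2 was highest in 13 of 21 with a median log2 difference of 0.93, and among those that ran on past it in 16 of 20 with 1.25. Where the model was too short to search the values were 10 of 13 and 1.12, and where longer sequence held no match 3 of 6 and 0.88. Among replacement genes 6 of 9 lay below the median of the other mice in replicate 2, and H1f0, H3f3c and H1f10 lay above it by 0.21, 0.19 and 0.04. The mouse was the lowest of all mice in H3f3a, H2az1, H2az2 and H2aj, 4 of 9, where it was lowest in 10.6% of tested genes, and its median log2 difference over the 9 was −0.25. H3f3a, for example, had 305 CPM in replicate 2 and 512 to 604 CPM in the other 19 mice. RNAs without a poly(A) tail were also high in replicate 2. The U1 RNA Rnu1a1 had 47.2 CPM there, the signal recognition particle RNA Rn7s1 127 CPM and Rn7sk, which restrains transcription elongation, 125 CPM. In the other 19 mice these were at most 0.61, 14.0 and 19.9 CPM. Control replicate 7, with the second highest cluster sum, had 0.0651, 7.25 and 8.42 CPM. The part of these RNAs in the histone values of replicate 2 was not tested.

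**Figure D3:**
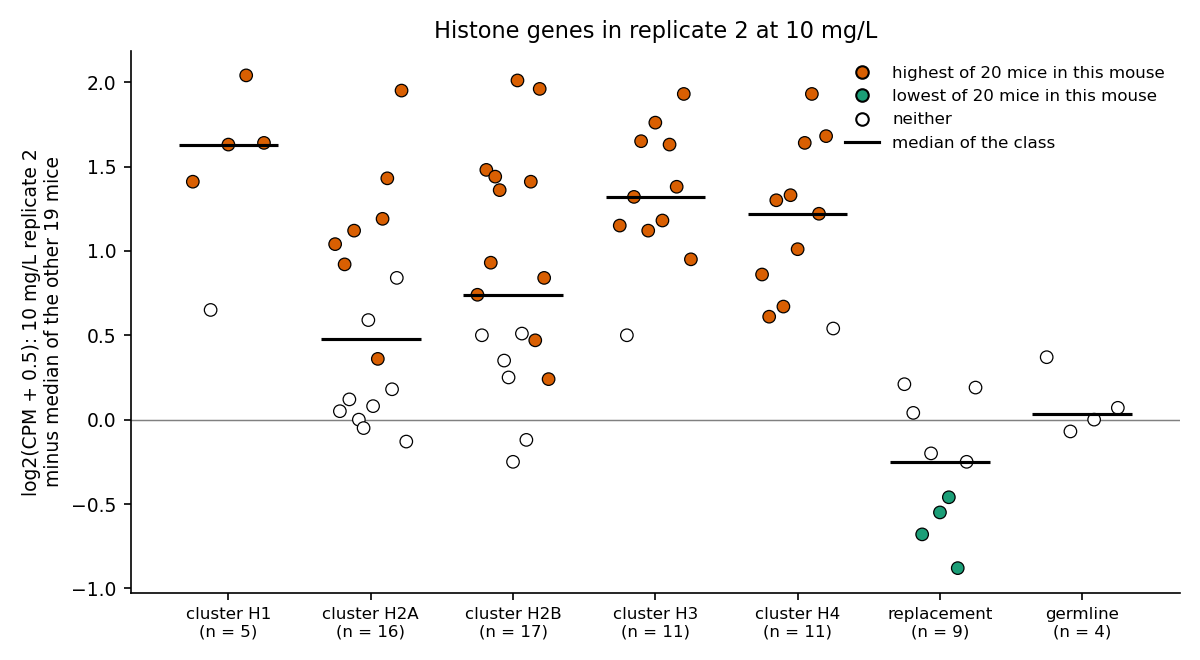
Log2 level of each histone gene in replicate 2 at 10 mg/L minus the median of the other 19 mice (CPM plus 0.5), by class, with black lines at class medians. Orange genes (42 of 60 cluster genes) are highest in this mouse and green genes (4 of 9 replacement genes) are lowest in it.

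The first comparison asked which histone mRNAs differed after 10 mg/L. No histone gene passed at an adjusted p of 0.05 with edgeR's quasi-likelihood test, against all controls (0 of 50 tested; 0.00561% of all 17810 genes passed) or against the controls of experiment 2 (0 of 50; 0% of all genes passed). The 50 tested genes were 41 cluster, 8 replacement and 1 germline gene, and the other 23 were too low for the filter. Since a gene can pass that filter through its highest mice alone, counts over the tested genes are a description. Against all controls, 9 of 41 cluster genes were higher at an unadjusted p under 0.05, where 3.08% of all genes were, and 1 was lower, where 3.14% were. Against the controls of experiment 2, 9 were higher, where 3.78% of all genes were, and 0 were lower. The median log2 change over the cluster genes was 0.73 against all controls and 0.88 against the controls of experiment 2, with 36 of 41 positive each time, beside medians of −0.000391 and 0.000225 and positive shares of 49.9% and 50.1% over all genes. The replacement genes had medians of −0.10 and −0.08, and of −0.01 and −0.02 without replicate 2. limma-trend called 0 histone genes in either comparison, and DESeq2 called 1 against all controls, where it called 0.0315% of all genes. That gene was H2ac18, which is treated below. Against the controls of experiment 2 DESeq2 called 0 histone genes and 0.161% of all genes.

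Linker histone genes of the cluster had the smallest p values at 10 mg/L. H1f4 had 0.157, 2.69, 0.453, 0.708 and 0.741 CPM at 10 mg/L (replicates 1 to 5), against 0.169, 0.173, 0.351, 0.160 and 0.259 CPM in the controls of experiment 2. In 4 exposed mice the level lay above all 5 controls and replicate 1 lay below them. The difference was 2.07 on the log2 scale (SE 0.55; edgeR adjusted p = 0.526) and was 1.78 against all controls (SE 0.44; adjusted p = 0.633). H1f5 differed by 1.84 (SE 0.54; edgeR adjusted p = 0.565) and H1f3 by 1.85 (SE 0.54; adjusted p = 0.565) against the controls of experiment 2, and H1f1 by 1.88 against all controls (SE 0.51; adjusted p = 0.633). H1f2, the most abundant linker gene of the cluster, differed by 0.34 from the controls of experiment 2 (SE 0.33; edgeR adjusted p = 0.893).

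The size of these differences rested on replicate 2. Without it the median log2 change over the cluster genes was 0.22 against all controls and 0.31 against the controls of experiment 2, with 27 and 28 of 41 positive. Of the 41, 5 and 6 were then higher at an unadjusted p under 0.05, where 2.74% and 3.72% of all genes were, and 1 was lower each time, where 2.06% and 2.02% were. H1f4 then differed by 1.2 from the controls of experiment 2 (edgeR adjusted p = 0.742), H1f5 by 1.07 (adjusted p = 0.834) and H1f3 by 1.37 (adjusted p = 0.786), and H1f1 by 1.06 from all controls (adjusted p = 0.998). H2bc12 was less affected, at 0.65 with all mice (SE 0.21; edgeR adjusted p = 0.644) and 0.67 without replicate 2 (adjusted p = 0.712).

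**Figure D4:**
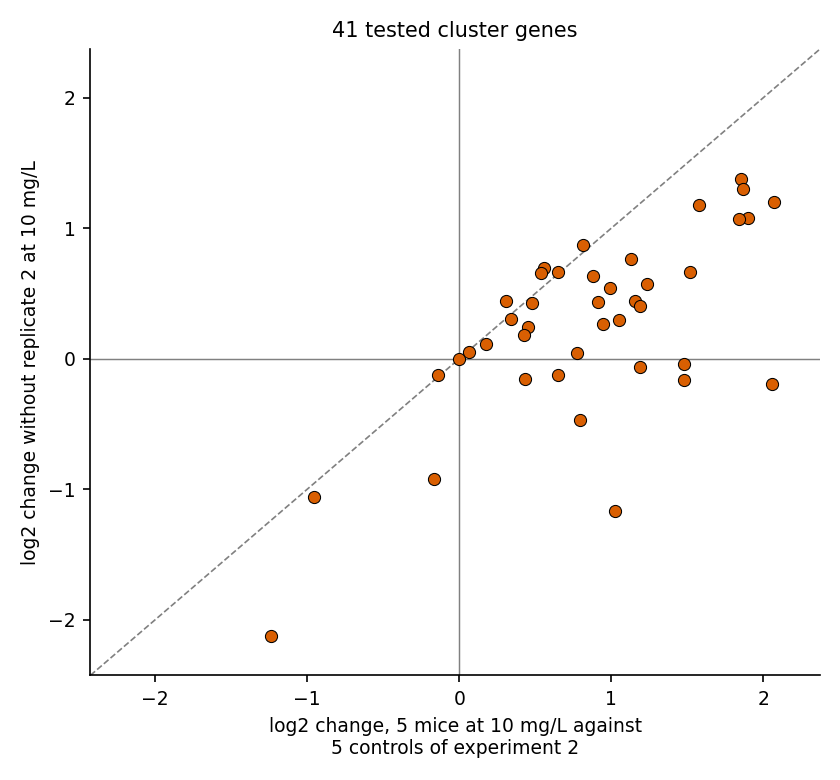
Log2 change of the 41 tested cluster genes at 10 mg/L relative to the controls of experiment 2, with all 5 exposed mice (horizontal) and without replicate 2 (vertical), and the line of equal values dashed. Of these genes 34 lie below that line: the median is 0.88 with all mice and 0.31 without replicate 2, and 36 and 28 genes are positive.

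For 500 mg/L the question was the same. No histone gene passed, against all controls (0 of 50 by edgeR; 0.0112% of all genes passed) or against the controls of experiment 1 (0 of 50; 0% of all genes), and limma-trend called 0. DESeq2 called 0 histone genes in both, where it called 0.707% and 0.0171% of all genes. Of 41 cluster genes, 0 were higher at an unadjusted p under 0.05 in either comparison, where 4.51% and 2.73% of all genes were. In the other direction 2 were lower against all controls, where 4.18% of all genes were, and 3 were lower against the controls of experiment 1, where 2.46% were. The median log2 change of the cluster genes was −0.22 with 14 of 41 positive against all controls, and −0.28 with 10 of 41 positive against the controls of experiment 1, where 49.9% and 50.5% of all genes were positive. H2bc12 had the smallest p in both, and H3c14 came next, at −0.54 against all controls (SE 0.26; edgeR adjusted p = 0.573) and −0.66 against the controls of experiment 1 (SE 0.29; adjusted p = 0.954). Without control replicate 7 the cluster median was −0.08 against all controls and −0.22 against the controls of experiment 1, and H3c14 stood at −0.37 against the other 4.

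The control sets were compared with each other in the same way. Controls of experiment 1 against controls of experiment 2 gave a cluster median of 0.16 with 30 of 41 positive (50.3% of all genes), and 0 of 50 histone genes passed (edgeR; 0.157% of all genes did), with 3 cluster genes higher at an unadjusted p under 0.05, where 5.24% of all genes were, and 0 lower, where 4.54% were. The 3 higher genes were H2ac18, H2bc12 and H2bc4, and control replicate 7 was the highest control in each, at 4.36, 7.03 and 27.5 CPM. Leaving out single mice moved the cluster median between 0.09 (without control replicate 7) and 0.32 (without control replicate 4). Setting the effect of 500 mg/L minus that of 10 mg/L, each against its own controls, asked whether the doses acted differently. No histone gene passed this test either (0 of 50; 0% of all genes), while 10 of 41 cluster genes had a negative difference at an unadjusted p under 0.05, where 3.38% of all genes did, and 0 had a positive one, where 2.03% did. The cluster median of the difference was −1.15 with 5 of 41 positive (51.8% of all genes), and −0.58 without replicate 2 at 10 mg/L, with 9 positive. Then 7 were negative at an unadjusted p under 0.05, where 3.8% of all genes were, and 0 positive, where 1.74% were. Dose and experiment cannot be told apart beyond what the controls of each experiment correct.

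H2bc12, a cluster gene for H2B with a short annotated end after its stem-loop, had the smallest p for the difference between doses. It had 3.21, 4.25, 4.65, 5.10 and 4.73 CPM at 10 mg/L, against 2.46, 2.84, 3.39, 2.80 and 2.44 CPM in the controls of experiment 2. Replicate 1 at 10 mg/L fell within the range of these controls, and 0 of 60 cluster genes had all 5 mice above or all 5 below them, as 0.515% and 0.483% of all genes had. At 500 mg/L it had 2.17, 2.22, 2.34, 2.30 and 2.64 CPM, against 3.29, 7.03, 2.97, 3.27 and 2.85 CPM in the controls of experiment 1. These groups did not overlap, as for 1 of 60 cluster genes and 0.448% of all genes in that direction. At the higher dose the difference was −0.73 on the log2 scale (SE 0.21; edgeR adjusted p = 0.838), and −0.41 (adjusted p = 0.998) without control replicate 7. The difference between the effects of 500 and 10 mg/L was −1.39 (SE 0.30; unadjusted p = 0.000195, edgeR adjusted p = 0.831). Between the control sets H2bc12 was also higher in experiment 1 at an unadjusted p under 0.05 (edgeR), as 5.24% of all genes were. That gap between the controls enters the value of −1.39. Much of it came from control replicate 7: the other 4 controls of experiment 1 had a mean of 3.09 CPM, within the 2.44 to 3.39 CPM of the controls of experiment 2. Next by p for the difference between doses were H4c8 at −2.30 (SE 0.74; adjusted p = 0.848) and H1f3 at −2.24 (SE 0.76; adjusted p = 0.865). Without control replicate 7 H4c8 stood at −1.53 and H2bc12 at −1.06, and without replicate 2 at 10 mg/L H4c8 stood at −1.90, H1f3 at −1.77 and H2bc12 at −1.40. DESeq2 called H2bc12 in this test and no other histone gene, where it called 0.0463% of all genes. The authors' deposited table of results has a comparison of 500 with 10 mg/L. By its name it sets these dose groups directly against each other, which is another quantity than the difference between own-control effects. The groups come from different experiments, so it cannot separate dose from experiment. In it H2bc12 was the 1 of 55 listed histone genes with an adjusted p under 0.05, at 0.0271. The share passing among the 18169 genes of that table was 1.59%. There 0 passed at 10 mg/L (lowest 0.0934, for H2aj; 0.611% of all genes passed) and 0 at 500 mg/L against the controls (lowest 0.127, for H2bc12; 1.26% of all genes passed).

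H2bc4, the cluster gene with the highest level, was highest in the mice with the most RNA of luteal markers. Luteal cells form from follicle cells after ovulation. H2bc4 had 7.65, 9.0, 15.5, 18.2 and 16.8 CPM at 10 mg/L, against 7.32, 10.8, 13.9, 6.87 and 7.29 CPM in the controls of experiment 2. At 500 mg/L it had 10.3, 9.12, 9.74, 9.81 and 7.51 CPM, against 9.10, 27.5, 11.9, 14.4 and 9.73 CPM in the controls of experiment 1. Control replicate 7 was the highest mouse, followed by replicates 4, 5 and 3 at 10 mg/L and control replicates 9 and 3. Against the controls of experiment 1 the log2 change at 500 mg/L was −0.64 (SE 0.30; edgeR adjusted p = 0.954), and −0.28 without control replicate 7. At 10 mg/L it was 0.54 (SE 0.30; adjusted p = 0.797) against the controls of experiment 2.

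The 6 mice with the highest H2bc4 were also the 6 with the highest sum of the 4 luteal markers Ptgfr, Sfrp4, Prlr and Akr1c18, at 1240 CPM or more, where the other 14 had at most 1090 CPM. For the prostaglandin receptor gene Ptgfr alone the same 6 mice were highest, at 154 CPM or more against at most 153 CPM. For Akr1c18, which encodes a progesterone-degrading enzyme, 5 of the 6 were shared, and for Sfrp4 and Prlr 4 of the 6. No luteal marker was at 0 in all mice. The luteal sums ran from 564 to 2930 CPM at 10 mg/L and from 294 to 1270 CPM in the controls of experiment 2, and from 493 to 1090 CPM at 500 mg/L and from 413 to 3540 CPM in the controls of experiment 1. The match was not particular to H2bc4. The same 6 mice were highest in H2ac19, at 6.0 CPM or more against at most 4.82 CPM in the other 14. This likeness, with its cut at 6 mice, was noticed in the data. The part of luteal RNA in the values of H2bc4 and H2ac19 was not tested.

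**Figure D5:**
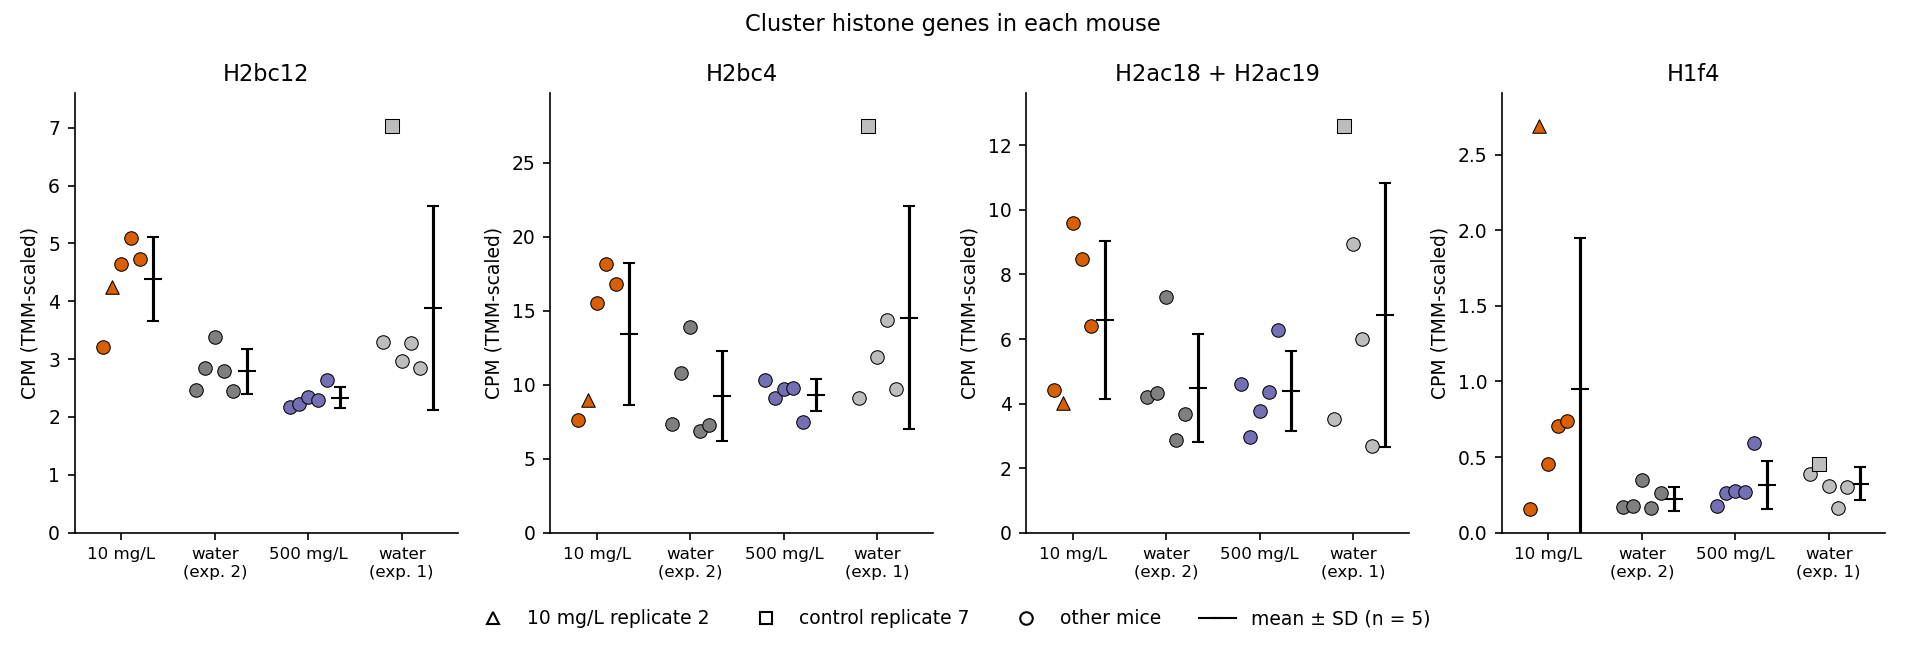
CPM of H2bc12, H2bc4, the sum of H2ac18 and H2ac19, and H1f4 in each mouse by dose and experiment, with mean and SD of 5 mice. Control replicate 7 (square) is highest in the first 3 panels, at 7.03, 27.5 and 12.6 CPM, and replicate 2 at 10 mg/L (triangle) is highest for H1f4, at 2.69 CPM.

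H2ac18 and H2ac19 are neighbouring H2A genes on chromosome 3 whose reads mostly cannot be told apart. The H2ac19 transcript of 528 bases in GENCODE M21 lies whole and without a difference inside the 586 bases of H2ac18, so a read within it fits both. Only the remaining bases of H2ac18 are its own. H2ac18 was at 0 in all 10 mice of experiment 2, at 10 mg/L as in the controls. It had 2.32, 0, 0, 1.51 and 3.53 CPM at 500 mg/L, against 2.22, 4.36, 4.13, 0 and 0 CPM in the controls of experiment 1. Added together, the genes had 4.43, 4.03, 9.58, 8.48 and 6.41 CPM at 10 mg/L, against 4.2, 4.33, 7.31, 2.88 and 3.67 CPM in the controls of experiment 2. They had 4.62, 2.95, 3.77, 4.36 and 6.28 CPM at 500 mg/L, against 3.53, 12.6, 8.95, 6.00 and 2.67 CPM in the controls of experiment 1. Counted as 1 feature they differed by 0.55 at 10 mg/L (SE 0.37; edgeR adjusted p = 0.827) and by −0.62 at 500 mg/L (SE 0.37; adjusted p = 0.961) against own controls, and by 0.59 between the control sets (SE 0.37; adjusted p = 0.637).

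The replacement genes varied little. The median spread between mice of a group (the biological coefficient of variation) was 13% over the 8 tested replacement genes, 59.5% over the 41 cluster genes and 18% over all tested genes, and 11.8%, 49.6% and 17.8% without replicate 2 at 10 mg/L. The cluster genes are also the less abundant ones, with fewer counts behind each value. At 10 mg/L H2ax differed from all controls by −0.22 (SE 0.09; edgeR adjusted p = 0.758) and H3f3a by −0.20 (SE 0.09; adjusted p = 0.790), and these were the 2 of 8 lower at an unadjusted p under 0.05, where 3.14% of all genes were. Against the controls of experiment 2, 0 of 8 reached it, and without replicate 2 none did in either comparison, with H3f3a at −0.06 against all controls. H2aj, an H2A gene outside the clusters, had 39.6, 35.0, 39.8, 41 and 36.9 CPM at 500 mg/L, against 41.6, 52.5, 43.1, 43.2 and 41.9 CPM in the controls of experiment 1. The groups did not overlap, as for 1 of 9 replacement genes and 0.448% of all genes in that direction, and they differed by −0.21 on the log2 scale (SE 0.11; edgeR adjusted p = 0.961). Under 500 mg/L the replacement genes had a median log2 change of 0.01 against all controls.

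Of the 4 germline genes the oocyte linker histone H1f8 was the 1 that was tested, since H2ac1, H2al1k and H2al1m were near 0. H1f8 had 41, 61.8, 34.5, 47.9 and 53.1 CPM at 10 mg/L, against 46.6, 45.8, 55.0, 58.1 and 47.8 CPM in the controls of experiment 2, and the groups overlapped. At 500 mg/L it had 41, 38.6, 63.6, 41.4 and 66.0 CPM, against 49.9, 32.8, 54.1, 39.9 and 53.3 CPM in the controls of experiment 1. It differed from own controls by −0.09 at 10 mg/L (SE 0.18; edgeR adjusted p = 0.959) and by 0.12 at 500 mg/L (SE 0.18; adjusted p = 0.968). Its spread between mice of a group, 19.9%, was close to that of all tested genes.

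No gene passed in the lists of genes that work with histones. Against own controls 0% of all genes passed at either dose, so this count does not set the lists apart. The 24 S phase genes listed, which make and license replicating DNA, were all tested and 0 passed (edgeR). Their median log2 change was −0.14 at 10 mg/L relative to the controls of experiment 2, with 0 of 24 positive, where 50.1% of all genes were. The cluster histone genes had a median of 0.88. Without replicate 2 the S phase median was −0.15, again with 0 of 24 positive, and the cluster median 0.31. Among the S phase genes E2f1, Tyms and Pcna had the smallest p at −0.26, −0.22 and −0.25 (adjusted p = 0.809, 0.810 and 0.821). With 500 mg/L the S phase median against own controls was −0.04 with 7 of 24 positive, where 50.5% of all genes were. Of 25 genes for the 3′ end formation and turnover of histone mRNA 23 were tested and 0 passed, with medians of −0.07 at 10 mg/L and 0.01 at 500 mg/L against own controls. Slbp, which encodes the stem-loop binding protein, stood at −0.24 at 10 mg/L (SE 0.09; edgeR adjusted p = 0.751), and Eri1, an exonuclease that trims the stem-loop end, at −0.17 (SE 0.05; adjusted p = 0.565). Tut7, which adds uridines to histone mRNA ends, stood at 0.29 at 500 mg/L (SE 0.10; adjusted p = 0.954).

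The 28 histone chaperones listed, which hand histones to DNA, had medians of −0.05 at 10 mg/L and 0.02 at 500 mg/L against own controls. Of these 0 passed (edgeR), as 0% of all genes did. The H3-H4 chaperone Asf1b stood at −0.24 at 10 mg/L (SE 0.11; adjusted p = 0.757), and Atrx, which loads the H3 replacement form at repeats, at 0.17 at 500 mg/L (SE 0.08; adjusted p = 0.954). Of 7 histone variants with other names 3 could be tested. Macroh2a1, Macroh2a2 and the centromere histone Cenpa stood at −0.12, −0.16 and −0.06 at 10 mg/L against own controls (edgeR adjusted p = 0.797, 0.853 and 0.969). The variants of this list summed to 212 CPM in replicate 2 and to at least 237 CPM in the other 19 mice. Against all controls the median of the 3 was −0.09 with all mice and −0.05 without replicate 2. The 6 tested RNAs without a poly(A) tail had a median of 3.50 at 10 mg/L relative to the controls of experiment 2, with 6 of 6 higher at an unadjusted p under 0.05, where 3.78% of all genes were. Of these RNAs 0 passed (edgeR, lowest adjusted p 0.556), as 0% of all genes did. Without replicate 2 their median was 0.35, with 5 of 6 positive and 0 of 6 at an unadjusted p under 0.05. With 500 mg/L their median was −0.06.

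Markers of endothelial cells, which line vessels, also had positive log2 changes at 10 mg/L, though none passed. The 5 listed (Pecam1, Cdh5, Tie1, Esam and Eng) were positive in 5 of 5 cases with a median log2 change of 0.36 against all controls and 0.33 against the controls of experiment 2. At an unadjusted p under 0.05, 4 of 5 and 5 of 5 were higher, where 3.08% and 3.78% of all genes were. Of the 5, 0 passed (edgeR, lowest adjusted p 0.633 and 0.644), where 0.00561% and 0% of all genes did. Without replicate 2 the medians were 0.38 and 0.32, and 4 and 2 of 5 reached an unadjusted p under 0.05. Their sums ran from 258 to 370 CPM at 10 mg/L, against 194 to 283 CPM in the controls of experiment 2, and no marker was at 0 in all mice. At 500 mg/L the endothelial median against own controls was 0.03. The 4 luteal markers had medians of 1.75 at 10 mg/L and −0.65 at 500 mg/L against own controls, with 4 of 4 positive at 10 mg/L and 0 of 4 at 500 mg/L. Without control replicate 7 the luteal median at 500 mg/L was 0.14. Against all controls the luteal medians were 0.78 at 10 mg/L and −0.17 at 500 mg/L. The control sets also differed from each other. Controls of experiment 1 against controls of experiment 2 had a luteal median of 1.47, with 4 of 4 positive. The part of either cell type in the histone values was not tested.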

How the data were processed

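RNA from the follicles of 1 mouse made 1 library of a stranded mRNA kit, read from 1 end, per the labels. The submitters' processing notes name build GRCm39, Salmon 1.2.0, FastQC 0.11.8, R 4.1.2, limma and edgeR. Which annotation was indexed is not given in the sources used here. Values in the deposited count table are Salmon's estimated counts per gene without normalisation. Salmon shares reads among like transcripts by estimation, so near-identical histone genes exchange counts. The authors' deposited table of results gives p-values and signed linear fold changes as a score, and was used only for the sentences that name it. Column headers give each mouse's experiment.

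Counts were rounded to whole numbers and analysed in R 4.3.3 with edgeR 4.0.16: expression filter by group, TMM scaling, a quasi-likelihood fit over all 20 mice with robust dispersion, two-sided tests and Benjamini-Hochberg adjustment over 17810 genes at 0.05. All-control comparisons used 1 mean per group, and own-control comparisons used 1 mean per group and experiment. The pipeline was tested on simulated data. Each replicate is a separate mouse, and spread between mice limits precision more than depth for abundant genes. For the low cluster genes counting error adds to it. Stem-loop sites come from GENCODE M21 transcripts (GRCm38), so no coordinates are given. The members, lists and tests were chosen with earlier results of these data known. Genes were named by rule: the 3 highest of each class, the 3 with the smallest p in each comparison, and the 3 with the smallest p of each list. H2aj, H2ax, H3f3a at 10 mg/L and H1f8 by mouse were added after their values were seen, as were H2ac18 and H2ac19 counted as 1 feature. Alternatives were other scalings, no filter, DESeq2 1.42.0, limma-trend (limma 3.58.1), a replicate block and each mouse left out.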

Additional observations from a re-analysis of the deposited data

Results flagged for a closer look

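Values were checked in 83 groups of mice for a single mouse far from the others of its group, and 18 such mice and values were found. The cutoff is set for about 1 in 20 groups of normally distributed values. The groups hold the same mice, and the sums and the percentage contain the listed genes. That share is therefore no expected number for these 83 groups, and the 18 are a description. Replicate 2 at 10 mg/L was high in H1f4 (2.69 CPM, next mouse 0.741), H2ac23 (2.50, next 0.829), H3c4 (2.42, next 0.806), H4c12 (1.63, next 0.453) and H1f1 (1.2, next 0.263). It was low in H3f3a (305 CPM, next 512), H3f3b (544, next 647) and the replacement sum (1550, next 1980). Control replicate 7 was high in H2bc4 (27.5 CPM, next 14.4), H2bc12 (7.03, next 3.39), H3c14 (5.06, next 3.22) and H4c8 (1.91, next 0.624). It was also high in the cluster sum (95.9 CPM, next 69.5) and in the cluster sum as a percentage of the replacement sum (5.04%, next 3.52%). Replicate 5 at 500 mg/L was high in H1f2 (16 CPM, next 7.49), H1f4 (0.592, next 0.278) and the cluster sum (62.0, next 50.3), and control replicate 8 was high in H3f3a (604, next 572).

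In H2bc12 all 5 mice at 10 mg/L lay above the mean of their own controls, by 1.60 CPM on average, and all 5 mice at 500 mg/L lay below the mean of theirs, by −1.55 CPM. Without control replicate 7 all 5 still lay below, by −0.763 CPM. In H4c8 the same pattern had mean differences of 0.944 CPM at 10 mg/L and −0.284 CPM at 500 mg/L. Its part at 500 mg/L rested on control replicate 7: without that mouse the means were 0.434 CPM at 500 mg/L and 0.419 CPM in the other 4 controls, and 3 of 5 mice lay above the control mean. At 10 mg/L the difference without replicate 2 was 0.596 CPM. The test of the difference between doses gave adjusted p values of 0.831 and 0.848 (edgeR).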

How the results depend on the processing

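The count of histone genes passing was 0 by edgeR in all 6 comparisons, and it stayed 0 under the alternatives run except 2: DESeq2 called 1 gene at 10 mg/L against all controls (H2ac18) and 1 in the difference between doses (H2bc12, where the log2 value was −1.39). Leaving out each mouse in turn gave 0 in every comparison. It moved the cluster median between 0.22 and 0.94 at 10 mg/L against all controls, 0.31 and 1.07 against own controls, −0.28 and −0.08 at 500 mg/L against all controls, −0.37 and −0.15 against own controls, 0.09 and 0.32 between the control sets, and −1.33 and −0.58 in the difference. The lowest values at 10 mg/L came without replicate 2. At 10 mg/L replicate numbers did not pair the mice, with correlations of −0.128 to 0.0879 between equal numbers. At 500 mg/L the equal numbers are controls of experiment 2, so the correlations (−0.0379 to 0.103) could not show pairing. With the number as a block 0 histone genes passed in the 3 comparisons that could be fitted. Against all controls, controls 6 to 10 stood alone in their blocks and added nothing. The block fit for 500 mg/L therefore used controls of the other experiment and cannot separate dose from experiment. Controls 6 to 10 share no number with the mice at 500 mg/L, so no block was possible against their own controls. The differences in summed CPM and in the percentage moved by less than the pooled SD between mice of the groups compared under the other scalings, with members of at least 200 counts or those kept by the filter, and without each mouse. That SD includes control replicate 7 and, at 10 mg/L, replicate 2, and both widen it. It therefore cannot show that the differences hold without these mice. At 10 mg/L the percentage was 4.12% with replicate 2 and 3.35% without it, against 2.66% in the controls of experiment 2. The differences at 500 mg/L that control replicate 7 moves by over 1.5 times are given with the sums. The 42 cluster genes highest in replicate 2 were recounted with library totals and with DESeq2-type factors, both chosen after seeing the data, and the count was 42 with each.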
